A study of Mus musculus with 2 samples.

Results

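Mesothelial cells of perivascular fat, the adipose tissue that sheaths the aorta, were chosen by a rule on the measured transcripts of single barcodes. A member had 500 or more genes detected, no more than 10% of its transcripts from mitochondrial genes, at least 1 UMI (unique molecular identifier, a counted transcript) in at least 3 of the 5 genes Upk3b, Upk1b, Lrrn4, Krt8 and Krt18 with Upk3b or Upk1b among them, and 0 UMIs of Sox10 and Cdh5. Selected on these genes were 448 members of 26466 barcodes that passed the gene and mitochondrial limits. There were 386 members of 12755 young barcodes, 3.03% (exact Clopper-Pearson 95% interval 2.74 to 3.34), and 62 of 13711 old barcodes, 0.452% (0.347 to 0.579). The share in the young library was 6.69 times that in the old library.

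The series compared primary perivascular stromal cells of young and old wild-type (WT) mice in 2 droplet libraries, 1 per age, and both groups had the same genotype and the same collagenase digest. The sources used here do not state the age in months, how many mice went into a library, their sex, or any time in culture. With 1 library per age no difference has a replicate check, no test exists, and every interval covers counting error only. Age, digest yield and library cannot be told apart.

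A mesothelium is a single layer of flattened cells that covers the serous surfaces of the body wall and inner organs. Its cells keep epithelial features such as keratins, tight junctions and surface microvilli, but come from mesoderm, carry the transcription factor Wt1 and hold intermediate filaments and matrix genes in common with fibroblasts. In serous cavities they make lubricating fluid, balance clotting against fibrinolysis, release chemokines in infection, and can shift towards a fibroblast-like state in injury.

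The young members together held 4701975 UMIs and the old members 617837, with medians of 10563 and 8566 UMIs per barcode. Other barcodes of the same libraries had medians of 9154 and 9485, so the members were the deeper class in the young and the shallower class in the old library. Medians of 2890 and 2609 genes were detected per member, and mitochondrial genes held 2.65% and 2.03% of UMIs. Sox10, a glial transcription factor gene, turned away 1 young barcode, and Cdh5, the gene of endothelial VE-cadherin, 1 young and 4 old. Among the libraries 275 barcode sequences occurred in both, 9 of them young members and 3 old members, and 0 were members in both. Levels are given as CPM (UMIs of the gene scaled to a class total of 1000000). Of the sex-linked transcripts, Xist had 0 UMIs in both sets of members and Ddx3y 77.2 and 74.5 CPM. With 617837 old UMIs, a count of 0 allows up to 3 UMIs, the floor used below.

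The promoters of Upk3b and Lrrn4, which define the class, and of Saa3, Cxcl1 and Il6, secreted inflammatory genes among the 15 largest age ratios, are printed for the 250 bases before the transcript start (RefSeq, GRCm38.p6). Capitals mark 1 match each, to 1 motif chosen per gene. In Upk3b and Lrrn4 the match is to GGAATG, the core read by TEAD factors. In Saa3 it is to TTGCNNAA, a core read by C/EBP factors, and in Cxcl1 and Il6 to the NF-kB motif. Left unmarked were 1 match to the NF-kB motif in Upk3b and 1 to the C/EBP core in each of Lrrn4 and Il6. The rule genes Krt8 and Krt18 had 0 TEAD matches. Both strands were searched, and the motifs could overlap. The lines give Upk3b at chr5:136038246-136038495 on the forward strand, Lrrn4 at chr2:132880863-132881112 on the reverse strand, Saa3 at chr7:46715677-46715926 on the reverse strand, Cxcl1 at chr5:90890995-90891244 on the forward strand and Il6 at chr5:30012864-30013113 on the forward strand.
Upk3b: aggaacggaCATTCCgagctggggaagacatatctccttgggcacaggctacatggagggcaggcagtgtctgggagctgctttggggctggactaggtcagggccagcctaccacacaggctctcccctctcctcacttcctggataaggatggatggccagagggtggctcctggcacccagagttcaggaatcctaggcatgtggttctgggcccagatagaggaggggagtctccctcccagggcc
Lrrn4: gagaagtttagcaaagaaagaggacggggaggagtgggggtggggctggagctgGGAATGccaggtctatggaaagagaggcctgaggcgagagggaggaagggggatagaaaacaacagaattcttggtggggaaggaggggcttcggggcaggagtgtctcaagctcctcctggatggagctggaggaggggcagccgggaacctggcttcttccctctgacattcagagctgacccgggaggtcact
Saa3: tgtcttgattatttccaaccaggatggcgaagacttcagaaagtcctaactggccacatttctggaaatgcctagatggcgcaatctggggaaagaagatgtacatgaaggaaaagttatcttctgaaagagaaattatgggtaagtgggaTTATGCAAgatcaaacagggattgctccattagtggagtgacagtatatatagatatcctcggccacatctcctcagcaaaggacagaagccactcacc
Cxcl1: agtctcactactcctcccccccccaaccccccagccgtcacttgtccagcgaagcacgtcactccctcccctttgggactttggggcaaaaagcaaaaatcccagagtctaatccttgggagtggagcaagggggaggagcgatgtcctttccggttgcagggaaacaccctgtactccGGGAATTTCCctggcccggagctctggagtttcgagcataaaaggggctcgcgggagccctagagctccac
Il6: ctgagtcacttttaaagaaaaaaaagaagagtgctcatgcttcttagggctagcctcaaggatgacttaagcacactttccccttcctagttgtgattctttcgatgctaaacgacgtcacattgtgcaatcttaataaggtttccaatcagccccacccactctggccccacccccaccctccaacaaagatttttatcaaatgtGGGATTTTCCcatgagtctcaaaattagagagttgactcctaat
The TEAD core occurred in 12.6%, the C/EBP core in 9.56% and the NF-kB motif in 5.0% of 32851 mouse promoters of the same length. Of 59 genes named by rank below or always named, 39 had a promoter sequence, and 11, 7 and 11 of these held the TEAD, C/EBP and NF-kB motif in at least 1 promoter. Some of these genes, such as Bdnf, have several promoters. The counts of genes are therefore not comparable with the shares of single promoters. A match is a description of letters and not a binding site.

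The rule genes are given first as a description, since they chose the members. Upk3b, a uroplakin of the apical membrane, stood at 247 CPM in young and 180 CPM in old members, against 2.0 and 0.565 CPM in other barcodes. Upk1b, a tetraspanin partner of Upk3b, stood at 252 and 343 CPM, and Lrrn4, a leucine-rich repeat membrane protein gene used as a mesothelial marker, at 203 and 223 CPM. The keratin pair of simple epithelia, Krt8 and Krt18, was less even, with Krt8 at 87.2 and 142 CPM and Krt18 at 190 and 129 CPM. Krt8 was present in 42.5% of young and 53.2% of old members, and Upk1b in 93.8% and 93.5%.

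Members differed in how many rule genes they held. In the young library 149 members held 3 markers, 159 held 4 and 78 held 5, and in the old library 27, 21 and 14. Just outside the rule, 79 young and 30 old barcodes held 2 markers. Upk3b stood at 120 and 77.9 CPM in those barcodes, and at 227 and 202 CPM in members with 3 markers. Msln, outside the rule, stood at 9.60 and 22.7 CPM just outside and at 24.4 and 70.2 CPM just inside. Levels therefore ran on across the limit, and a share of the barcodes beyond it held mesothelial transcripts too.

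Mesothelial genes outside the rule were also high in members. Of the 20 genes of that list 9 had at least 20 UMIs in members of both libraries, 6 of them at least 2-fold higher than in other barcodes in both libraries and 0 lower. Over all genes with that many UMIs, 158 of 3768 (4.19%) were higher and 75 (1.99%) lower. The rule chose members on the same barcodes, so these counts describe the class and are no independent check of it. Wt1, the mesothelial zinc finger factor, stood at 137 and 142 CPM in young and old members (18.8 and 15.6 CPM in other barcodes). Gpm6a, a membrane glycoprotein gene of mesothelium and neurons, stood at 143 and 89.0 CPM (1.45 and 3.02 CPM elsewhere). Msln, which encodes the surface glycoprotein mesothelin, reached 32.1 and 79.3 CPM (0.336 and 0.131 CPM elsewhere).

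Bnc1, a zinc finger factor of basal and mesothelial cells, was at 74.2 and 45.3 CPM, and the simple keratin gene Krt7 at 40.0 and 63.1 CPM. Not all textbook markers were present. Calb2, the gene of calretinin, had 0 UMIs in members and in all other barcodes of both libraries, which allows a share of up to 0.951% of young and 5.78% of old members with a UMI (upper exact limits). Muc16, the CA125 mucin gene, was in 4.92% and 1.61% of members. Krt19 had 13 UMIs in each library, and 76.9% of the old ones sat in 1 barcode. Outside the rule, Wt1, Msln, Bnc1, Gpm6a and Krt7 thus go with the label mesothelial. Calb2 was not detected, and Muc16 and Krt19 were in few members. Cd200, also on that list, was lower in young members than elsewhere (6.38 against 10.1 CPM) and higher in old members (167 against 84.7 CPM).

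Free RNA in droplets gives UMIs of a gene in cells that do not make it, so shares were set beside cell types that should lack the gene after thinning every barcode to 1000 UMIs. These were 31 young and 1075 old endothelial and 73 young and 87 old Schwann barcodes. Upk3b was then found in 22.5% of young and 19.4% of old members and in 0% of endothelial and Schwann barcodes. The rule chose members on Upk3b and Krt18 among others, so the shares of these genes in members are a description and no check. Mesenchymal barcodes, of which a random subset of 1498 per library was thinned, hold no Upk3b by their definition. Msln was found in 4.40% and 3.23% of members and Krt7 in 4.66% and 4.84%, with 0% in endothelial, Schwann and mesenchymal barcodes. Wt1 was found in 14.5% and 9.68% of members, and in 2.14% and 2.0% of mesenchymal barcodes. Some markers were also found in endothelial barcodes. Gpm6a was held by 14.8% of young and 9.68% of old members beside 9.68% and 2.51% of endothelial barcodes, and the rule gene Krt18 by 16.3% and 11.3% beside 9.68% and 4.47%.

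Genes were ranked by the smaller of the ratios to other barcodes in the young and the old library, and the first of the 20 highest was Dmkn, the gene of the secreted epithelial protein dermokine. Its ratio was 88.0-fold in the young and 89.3-fold in the old library, at 25.3 and 97.1 CPM in members. Pnoc, which encodes the precursor of the opioid-like peptide nociceptin, was 74.2-fold and 235-fold higher. The transferrin gene Trf was 71.2-fold and 27.8-fold higher at 435 and 476 CPM, and found in 77.2% of young and 75.8% of old members. Cxadr, the adhesion protein that coxsackie and adenoviruses use as receptor, was 44.4-fold and 63.1-fold higher at 381 and 327 CPM, in 93.8% and 91.9% of members.

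Several of the other leading genes serve polarised or secreting epithelia. Ezr encodes ezrin, which ties actin to microvilli (181 and 248 CPM in members, 24.4-fold and 20.7-fold higher than elsewhere). Spint2 encodes a membrane inhibitor of serine proteases (62.1 and 144 CPM), Folr1 a folate receptor (57.8 and 110.1 CPM), and Atp1b1 the beta subunit of the sodium pump (279 and 189 CPM). Slc39a8, a zinc and manganese importer gene, stood at 25.3 and 100.3 CPM, and Steap4, a metalloreductase gene, at 57.0 and 286 CPM. The remaining leading genes were Slpi, Vnn1, Gpm6a, Fam110c, Bicd1, Gm20186, Saa3, Palmd, Tmem151a and Oasl2, with ratios between 9.76-fold (Oasl2, young) and 204-fold (Vnn1, old).

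**Figure D1:**
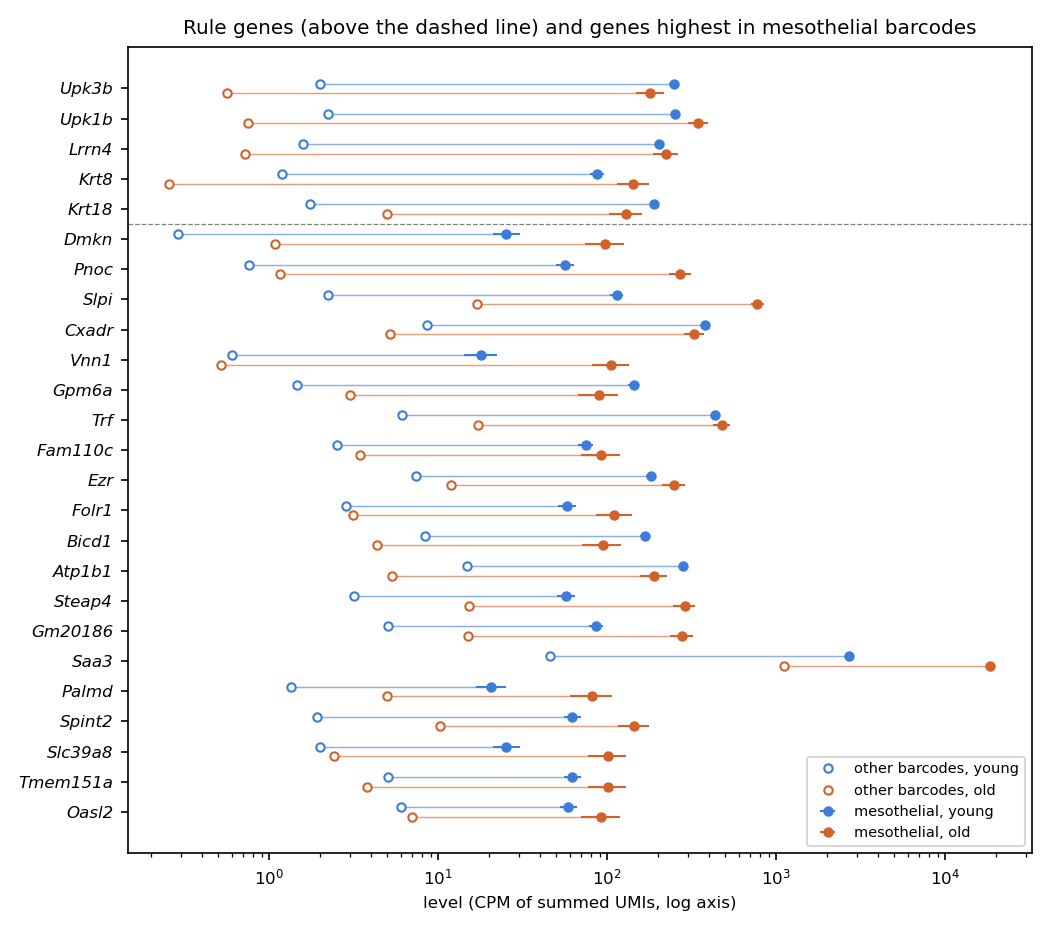
Level of the 5 rule genes and of the 20 genes highest in mesothelial members, in CPM on a log axis, with filled points for members, open points for all other barcodes of the same library and bars for counting intervals (95%). In every row both filled points lie to the right of both open points, with Saa3 highest at 2686 CPM in young and 18286 CPM in old members.

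Junction genes were partly epithelial. Of 33 genes of that list, 10 had enough UMIs in both libraries, with 5 higher in members and 0 lower: Cldn3, F11r, Jup, Ezr and Slc9a3r1. The claudin gene Cldn3 stood at 37.2 and 61.5 CPM in members and at 0.959 and 0.234 CPM elsewhere. Slc9a3r1, a scaffold that binds ezrin, was at 353 and 468 CPM in members. Epcam and Cdh1, the defining adhesion genes of most glandular epithelia, had 3 and 1 UMIs in young members and 0 in old members. Of 14 bladder and glandular markers 10 were at 0 in young and 13 in old members, with summed levels of 5.32 and 9.71 CPM.

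Fibroblast genes were found in many members. Pdgfra, the receptor that marks fibroblasts, was found in 66.6% of young and 72.6% of old members, at 134 and 193 CPM. Col1a1, a fibrillar collagen gene, stood at 1291 and 927 CPM in members and at 1956 and 1498 CPM in other barcodes. Of 11 fibroblastic markers with enough UMIs, 4 were at least 2-fold lower in members in both libraries (Fbn1, Mfap5, Serpinf1 and Pdgfrb) and 1 was higher, the decorin gene Dcn, at 329 and 749 CPM in members against 93.7 and 254 CPM elsewhere. Pdgfra UMIs after thinning were in 13.5% of young and 24.2% of old members, and in 0% and 3.81% of endothelial barcodes. Col1a1 was in 64.8% and 46.8% of members and in 53.4% and 55.2% of Schwann barcodes. The old share in members did not exceed that in Schwann barcodes. Whether Schwann barcodes make Col1a1 themselves was not tested.

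The 16 macrophage and leukocyte markers summed to 9.15 CPM in young and 58.3 CPM in old members, with 11 and 10 genes at 0, Ptprc among them. Adipocyte markers summed to 2.34 and 16.2 CPM, with 6 and 8 of 10 at 0. In other barcodes the leukocyte sums were 17.7 and 185 CPM and the adipocyte sums 4.88 and 106 CPM. Endothelial markers summed to 47.4 and 74.5 CPM with 4 and 5 of 14 at 0, Cldn5 among them besides the rule gene Cdh5, and Schwann markers to 116 and 95.5 CPM, above the 94.8 and 82.4 CPM of other barcodes. Most of the Schwann sum was the adhesion gene Ncam1 (80.4 and 50.2 CPM). Ovarian and steroidogenic markers, checked because ovarian surface cells share mesothelial genes, summed to 5.74 and 27.5 CPM, most of it Star with 21 and 16 UMIs.

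Gata6, a factor of mesoderm and cardiac mesothelium, stood at 263 CPM in young and 241 CPM in old members, against 53.6 and 50.1 CPM elsewhere. Of 10 genes of the coelomic and cardiac-type list with enough UMIs, 3 were higher in members (Gata6 and the mesothelial markers Wt1 and Bnc1) and 1 lower (Sox9), beside 4.19% and 1.99% of all genes. Of 18 growth factor and modulator genes with enough UMIs, 5 were higher in members and 4 lower. Wnt4 (43.4 and 79.3 CPM against 5.65 and 7.72 CPM), the cytokine gene Mdk (166 and 165 CPM against 37.7 and 24.9 CPM) and the Wnt modulator Sfrp2 were higher. Fgf7, a growth factor gene of fibroblasts, was among the lower genes, at 22.1 and 55.0 CPM against 135 and 308 CPM. Aldh1a1, an enzyme of retinoic acid synthesis, was higher at 302 and 201 CPM against 112 and 18.4 CPM.

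The second comparison asked how old members differed from young members. Of 7544 genes with at least 50 UMIs over both libraries, 265 (3.51%) were at least 2-fold higher in old members and 428 (5.67%) at least 2-fold lower, and the median log2(old/young) was -0.03. Young members held 4701975 UMIs and old members 617837, so genes high in young members reached the limit of 50 UMIs more easily. The counts of higher and lower genes are therefore not on an equal footing. The exact conditional Poisson 95% interval excluded no difference for 262 of the 265 and for 271 of the 428. Because 62 old members gave few UMIs, the distance from the middle of that interval to its ends had a median of 0.73 on the log2 scale. In mesenchymal barcodes (9465 young, 10107 old), the most numerous class, the same genes had a median of 0.12. There 128 of the 265 were also at least 2-fold higher and 92 of the 428 at least 2-fold lower. The shares of all measured genes that far apart in mesenchymal barcodes were not counted. These overlaps are therefore a description and cannot be read as high or low. The counts of list genes below stand beside the 3.51% higher and 5.67% lower over all genes.

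**Figure D2:**
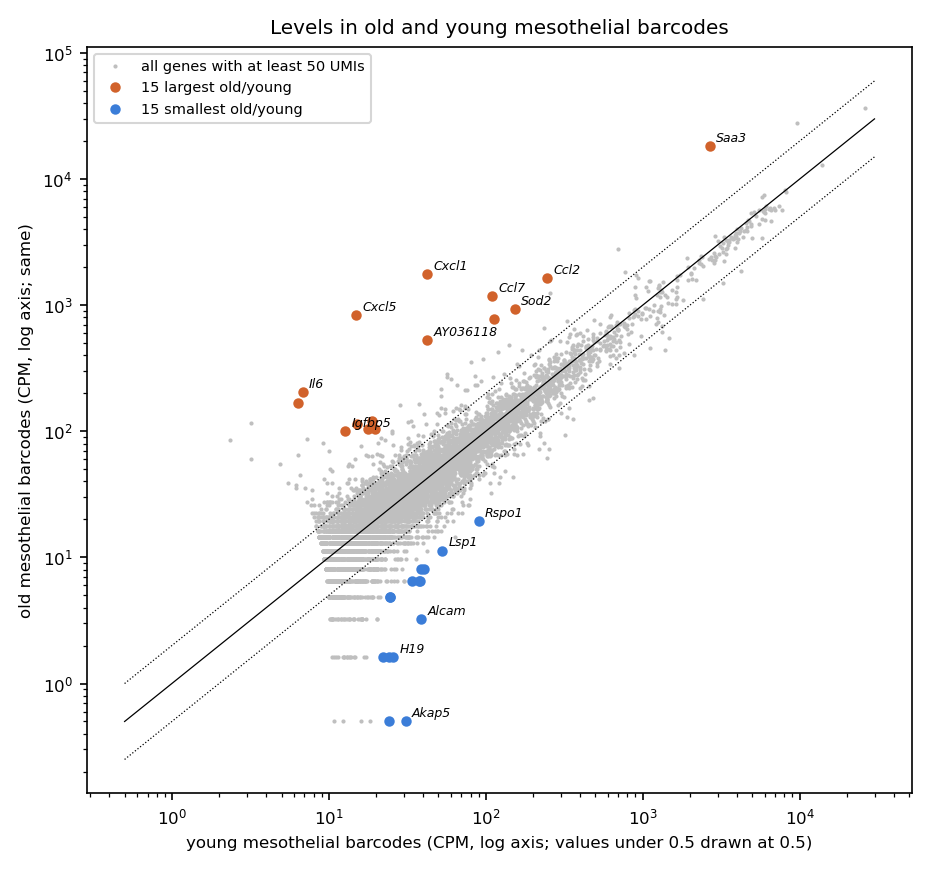
Level of each gene with at least 50 UMIs in young (x) and old (y) mesothelial members, in CPM on log axes, with a solid line at equal levels and dotted lines at 2-fold. Orange points are the 15 largest and blue points the 15 smallest ratios in the age ranking, which took genes with at least 100 UMIs. Cxcl5, Cxcl1 and Il6 lie far above the line, and Akap5 is drawn at the lower edge with 0 old UMIs.

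Among the genes in the age ranking, which had at least 100 UMIs, the 3 largest ratios were those of Cxcl5, Cxcl1 and Il6. Cxcl5, a neutrophil-attracting chemokine gene, went from 14.9 CPM in young to 832 CPM in old members (log2 5.8, interval 5.44 to 6.19), and from 8.81% to 93.5% of members with a UMI. Cxcl1, a related chemokine gene, stood at 42.3 and 1763 CPM (5.38, 5.16 to 5.61), in 16.6% and 96.8% of members. Il6, which encodes interleukin-6, stood at 6.81 and 206 CPM (4.92, 4.35 to 5.52). Among the 15 largest ratios were also those of the monocyte-attracting chemokine genes Ccl7 (110 and 1182 CPM, log2 3.43) and Ccl2 (247 and 1628 CPM, log2 2.72).

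The same chemokines were found in old mesenchymal, endothelial and Schwann barcodes too. Cxcl1 stood at 3135 CPM in old mesenchymal, 2073 CPM in old endothelial and 611 CPM in old Schwann barcodes, and after thinning it was found in 72.6% of old members, 81.6% of mesenchymal, 66.1% of endothelial and 29.9% of Schwann barcodes. Cxcl5 was found in 46.8% of old members and in 27.6% of old Schwann barcodes. Il6 was found in 14.5% of old members and 14.9% of old Schwann barcodes, so its share did not exceed that in Schwann barcodes. Whether Schwann barcodes make these genes themselves was not tested. Relative to mesenchymal barcodes the age ratio was smaller for Cxcl1 (log2 5.38 against 6.91) and Ccl2 (2.72 against 4.79), and close for Il6 (4.92 against 4.85). The part that free RNA had in the levels of these chemokines in members was not tested.

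As a list, 17 of 34 chemokines and cytokines had enough UMIs, with 10 higher, 2 lower and a median log2 of 1.57, against 4.09 for mesenchymal barcodes. Csf3, the granulocyte growth factor gene, stood at 2.34 and 85.8 CPM (log2 5.2), and at 867 CPM in old endothelial barcodes. The 2 lower genes, named after their values were seen, were Ccl20 (30.0 and 6.47 CPM) and Cxcl13 (51.7 and 16.2 CPM), chemokines for T and B cells. Ccl20 rests on few barcodes: 77.3% of its young UMIs came from 1 member. Without the richest barcode of each library its log2 ratio moved from -2.21 to -0.47. For Cxcl13, with UMIs in 51 young and 3 old members, the ratio moved from -1.67 to -3.17. Cxcl16, a membrane-bound chemokine gene, was higher in members than elsewhere in both libraries (96.8 and 372 CPM against 18.3 and 111 CPM).

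Saa3, which encodes an inducible serum amyloid A protein, took 2686 CPM in young and 18286 CPM in old members, 6.81-fold higher (log2 2.77, 2.73 to 2.8). All 62 old members held it with a median of 128 UMIs, while 72.5% of young members held it with a median of 6.5 UMIs and a highest value of 952. In other barcodes Saa3 stood at 45.9 and 1118 CPM, and its log2 ratio in mesenchymal barcodes was 5.89. It was thus already high in young members, and 58.6-fold higher there than in other young barcodes. The log2 ratio of Saa3 was 1.61 with members chosen after thinning to 3000 UMIs and 1.97 with at least 4 markers. It was 3.81 without members that held UMIs of genes used as markers of other cell types, such as Pdgfra, Pdgfrb, Ptprc and Pecam1. Pdgfra was itself found in 66.6% of young and 72.6% of old members. Whether the 103 young and 13 old members left are purer was not tested. Thinned shares of Saa3 were 50.5% of young and 91.9% of old members, beside 1.37% and 12.6% of Schwann barcodes.

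Of 24 acute-phase and complement genes 14 had enough UMIs, with 10 higher, 0 lower and a median of 1.45 (1.94 in mesenchymal barcodes). Lcn2, an iron-siderophore-binding defence protein gene, stood at 3.19 and 117 CPM (log2 5.19, 4.37 to 6.1), and at 546 CPM in old endothelial barcodes. Slpi, the secretory leukocyte protease inhibitor gene, stood at 114 and 772 CPM (2.77, 2.58 to 2.95), and was found in 26.7% of young and 46.8% of old members. The haptoglobin gene Hp stood at 28.3 and 162 CPM, the clusterin gene Clu at 140 and 486 CPM, and C3, the central complement component gene, at 85.1 and 235 CPM. Slpi was rare outside the class, at 2.22 and 17.0 CPM, and found after thinning in 22.6% of old members against 0.868% of old mesenchymal and 0% of old Schwann barcodes.

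**Figure D3:**
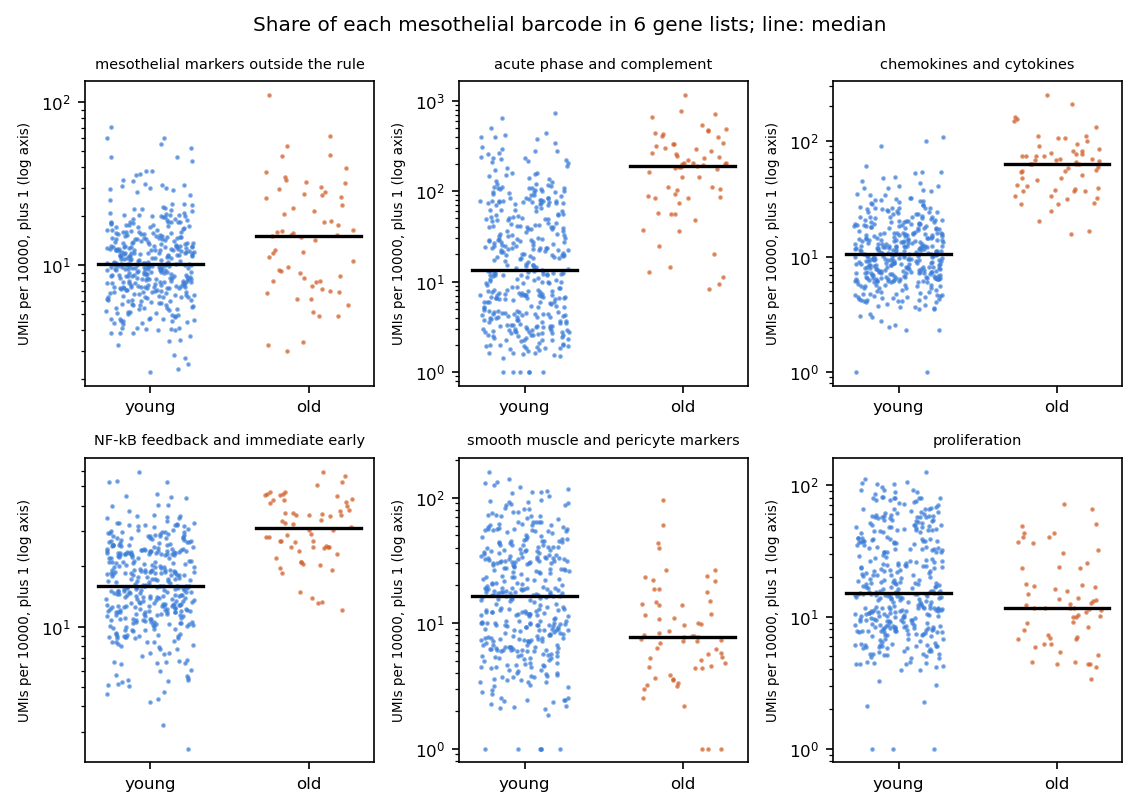
UMIs per 10000 (plus 1, log axis) of 6 gene lists in each mesothelial member, 386 young and 62 old, with a line at the median. For acute-phase and complement genes the medians before adding 1 were 12.6 and 191, and young members spread over more than 2 decades. For chemokines and cytokines they were 9.48 and 62.9, and for smooth muscle and pericyte markers 15.5 and 6.71.

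Young members were spread widely in acute-phase level. The list took 1.54 UMIs per 10000 at the 10th percentile of young members and 112 at the 90th, and 25.1 and 477 in old members, so the libraries overlapped. The level also differed with cell cycle genes. In the 145 young members with a UMI of Mki67 or Top2a, genes of dividing cells, Saa3 stood at 977 CPM, and in the other 241 at 4308 CPM. In old members the values were 9333 CPM (20 members) and 25203 CPM (42 members). Msln had the same order, at 12.7 and 50.6 CPM in young and 11.1 and 132 CPM in old members. The cycling members were deeper, with medians of 14313 against 9017 UMIs in the young library.

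Of 29 NF-kB feedback and immediate early genes 24 had enough UMIs, with 8 higher, 0 lower and a median of 0.89 (0.86 in mesenchymal barcodes). Tnfaip3, which encodes the inhibitor A20, stood at 5.53 and 38.8 CPM (log2 2.81), and Nfkbia, the gene of the NF-kB inhibitor IκBα, at 80.6 and 356 CPM (2.14). Vcam1, an adhesion molecule gene for leukocytes, stood at 111 and 267 CPM. Fos, an immediate early gene, was at 82.7 and 74.5 CPM, with an interval that included no difference (-0.63 to 0.29).

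Of 7 measured antigen presentation genes 4 were higher and 0 lower, with a median of 1.19. H2-K1 and H2-D1, class I heavy chain genes, stood at 37.4 and 165 CPM and at 52.1 and 191 CPM. Reads of these near-identical genes can be split between family members, so their single values are uncertain. The interferon response list was different, with 0 of 11 higher, 3 lower and a median of -0.57, against 0.41 for the same list in mesenchymal barcodes. Its summed level went the other way, from 1419 to 1816 CPM, with the abundant gene Ifitm3 at 887 and 1387 CPM. Its lower genes were Isg15 (56.6 and 19.4 CPM), Xaf1 (22.5 and 8.09 CPM) and Ifit1 (81 and 1 UMIs). The median of the list was 0.37 in the 103 young and 13 old members without UMIs of those marker genes of other cell types.

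**Figure D4:**
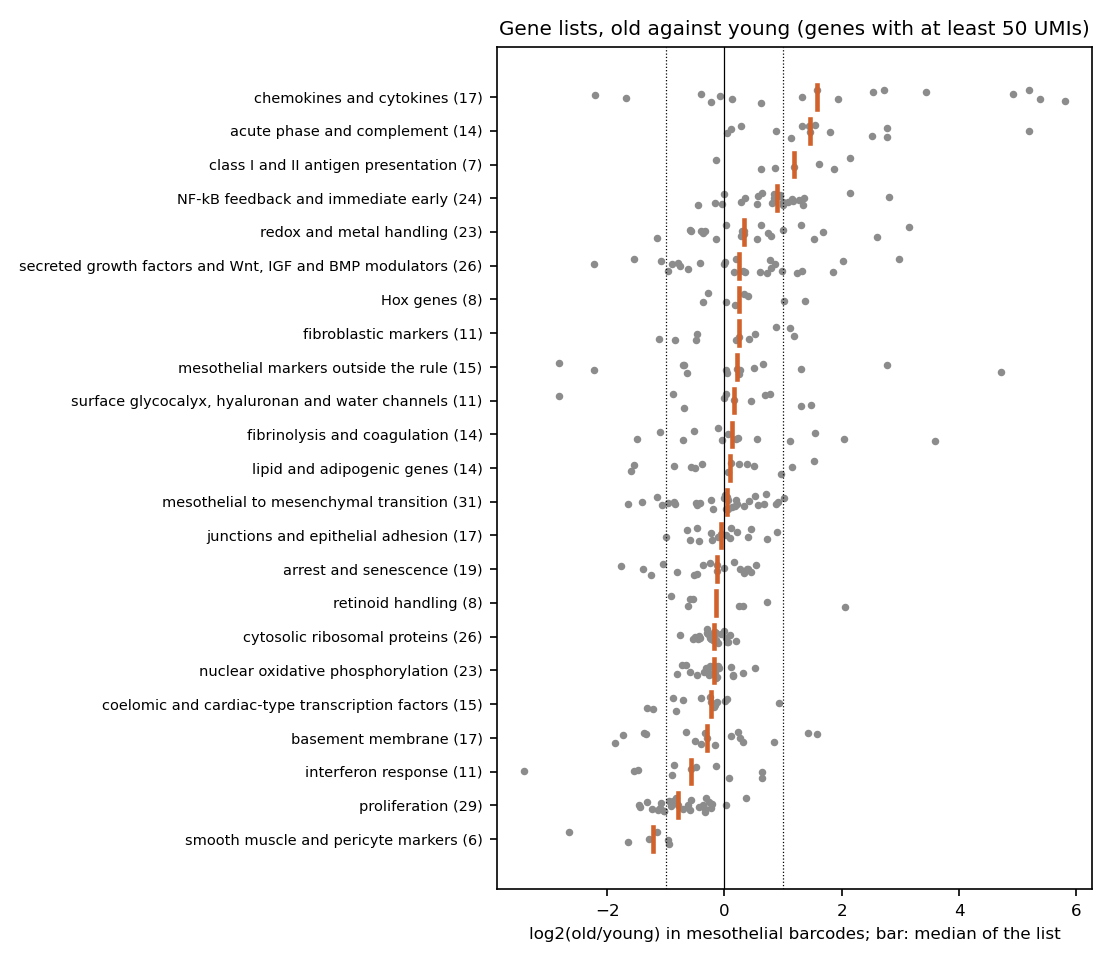
Log2(old/young) in mesothelial members for each measured gene (grey points) of the lists with at least 5 measured genes, whose number stands in brackets, with an orange bar at the median. Medians run from -1.22 for smooth muscle and pericyte markers to 1.57 for chemokines and cytokines.

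Genes of redox and metal handling divided. Of 23 measured, 6 were higher and 1 lower, with a median of 0.34. Fth1, the heavy chain of ferritin, was the most abundant of them, at 9668 CPM in young and 27706 CPM in old members (log2 1.52), against a log2 ratio of 0.73 in mesenchymal barcodes. Sod2, the mitochondrial superoxide dismutase gene, stood at 154 and 927 CPM and was found in 76.4% and 100% of members. Sod3, the extracellular form, stood at 9.15 and 80.9 CPM, and the peroxidase gene Gpx1 was lower at 708 and 320 CPM.

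Among the genes of high ratios some were outside the chemokine, cytokine and acute-phase lists. Vnn1, which encodes the pantetheinase vanin-1, stood at 17.9 and 105 CPM in members (log2 2.56, 2.07 to 3.04). It had 0.599 and 0.516 CPM in other barcodes, and its mesenchymal log2 ratio was -0.54 (-1.23 to 0.13). Pnoc stood at 56.4 and 270.3 CPM in members (2.26, 1.97 to 2.55), and its mesenchymal ratio was 0.07. Of its old UMIs 28.7% came from 1 member. The ratio of Vnn1 was 1.64 with members chosen after thinning and 3.35 without members holding UMIs of other cell types' markers. Whether the age ratios of Vnn1 and Pnoc differ between the classes was not tested.

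Cd200, a surface glycoprotein gene that inhibits myeloid cells, stood at 6.38 and 167 CPM and was found in 67.7% of old members, but in old endothelial barcodes it stood at 282 CPM and in old Schwann barcodes at 150.1 CPM. After thinning Cd200 was in 12.9% of old members and 17.2% of old Schwann barcodes. Schwann barcodes held more Cd200 than all barcodes outside the members, at 43.5 against 10.1 CPM in the young library. In the old library the values were 150.1 and 84.7 CPM. They are thus no background for this gene, and the part of free RNA in its level was not tested. Igfbp5, a binding protein gene for insulin-like growth factors, stood at 12.8 and 100.3 CPM, with 59.7% of its old UMIs in 1 member. Its log2 ratio moved from 2.98 to 2.13 without the richest barcodes and to -0.49 without cycling members, and it stood at 1903 CPM in old Schwann barcodes. The noncoding RNA AY036118 stood at 42.5 and 528 CPM, and at 509.6 CPM in old mesenchymal, 515 CPM in old endothelial and 575 CPM in old Schwann barcodes, so its level was alike in these classes. Among the other large ratios were those of the sphingosine phosphate receptor gene S1pr3 (15.1 and 113 CPM) and Gfpt2, an enzyme gene of the hexosamine pathway (18.7 and 121 CPM).

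**Figure D5:**
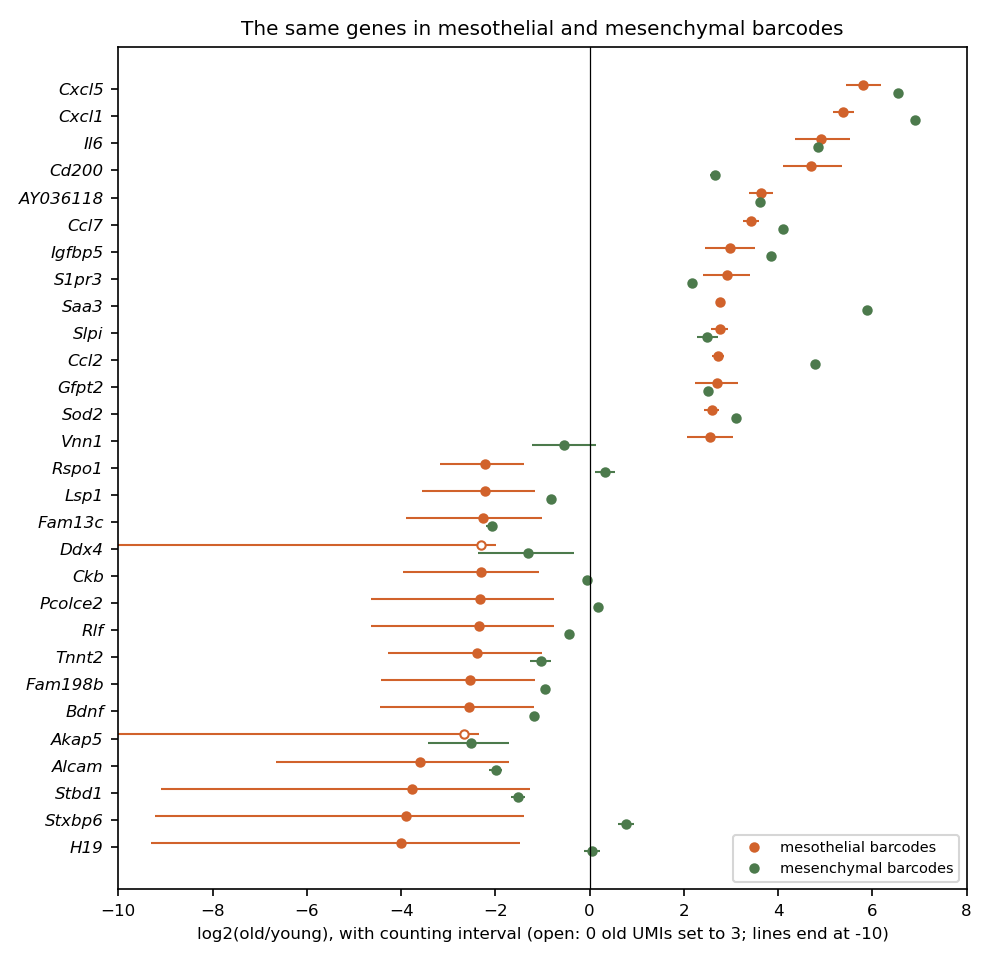
Log2(old/young) of named genes with the largest and smallest age ratios in mesothelial members (orange), beside the same genes in mesenchymal barcodes (green), with counting intervals (95%). Saa3 and Ccl2 have smaller ratios in members. Vnn1, Rspo1, Stxbp6, Pcolce2 and H19 lie on opposite sides of 0 in the 2 kinds of barcode. The mesenchymal intervals of Vnn1 and H19 include 0. Lower genes have wide intervals because old members held few of their UMIs.

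The smallest ratios rest on very few old UMIs. H19, a noncoding RNA of an imprinted locus, had 121 UMIs in young and 1 in old members (log2 -3.99, -9.31 to -1.49). Stxbp6 had 114 and 1, Stbd1 104 and 1, and the adhesion molecule gene Alcam 183 and 2. Akap5, an anchoring protein gene for protein kinase A, had 145 and 0 UMIs and was at least 6.35-fold lower with the 0 set to 3 UMIs (the upper limit of the exact interval was log2 -2.35). Ddx4, an RNA helicase gene of germ cells, had 113 and 0 UMIs and was 4.95-fold lower on the same floor (upper limit log2 -1.99). Its young UMIs were spread over 48 of 386 members, 12.4%, with 15% of them in 1 member, and it stood at 0.432 CPM in other young barcodes.

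Among better counted genes, Rspo1, a Wnt-enhancing secreted protein gene of mesothelium, stood at 90.2 CPM in young and 19.4 CPM in old members (log2 -2.21, -3.18 to -1.40). It was found in 56.5% and 16.1% of members. Its mesenchymal ratio was 0.32 at a level of 3.10 and 3.87 CPM. The remaining genes of this set were Bdnf, Fam198b, Tnnt2, Rlf, Pcolce2, Ckb, Fam13c and Lsp1, with 115 to 249 young and 3 to 7 old UMIs and log2 ratios from -2.56 to -2.22. Pcolce2 was at 0.45 with members chosen after thinning. Bdnf encodes a neurotrophin, Tnnt2 the cardiac troponin T and Ckb the brain form of creatine kinase.

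The mesothelial markers outside the rule did not move as a block. Of 15 measured, 3 were higher (Msln, Slpi and Cd200) and 2 lower (Rspo1 and Podxl), with a median of 0.21. Msln stood at 32.1 and 79.3 CPM (log2 1.30, 0.81 to 1.78), in 20.5% and 40.3% of members. Gpm6a was in 73.8% of young and 48.4% of old members (log2 -0.69, -1.11 to -0.29) and Bnc1 in 53.9% and 29.0% (-0.71, -1.32 to -0.16). Wt1 differed little at this depth (log2 0.05, -0.29 to 0.38). Podxl, a sialomucin gene, had 54 and 1 UMIs.

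All 6 measured smooth muscle and pericyte markers of the 15 in that list had ratios below 0, 4 of them at least 2-fold, with a median of -1.22 (-0.84 in mesenchymal barcodes). Tagln, the gene of SM22α that the series title names, stood at 1378 CPM in young and 440 CPM in old members (log2 -1.65, -1.83 to -1.47), and at 1132 and 779 CPM in mesenchymal barcodes (-0.54). Young members held a median of 8 Tagln UMIs and old members 1.5. Of the old Tagln UMIs 24.3% came from 1 member, and without the richest barcodes the ratio was -1.99. With members chosen after thinning to 3000 UMIs (128 young, 16 old) it was -0.94, under 2-fold. Acta2, the smooth muscle actin gene, stood at 1322 and 681 CPM (-0.96, -1.1 to -0.81, mesenchymal -0.01). Des, which encodes desmin, stood at 158 and 64.7 CPM and was higher in members than elsewhere (20.5 and 7.37 CPM). After thinning Tagln was found in 51.6% and 32.3% of members and in 27.4% and 31.0% of Schwann barcodes. The old share in members was close to that in Schwann barcodes. Whether Schwann barcodes make Tagln themselves was not tested.

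The list for the transition of mesothelial to mesenchymal cells had 1 of 31 measured genes higher and 4 lower. These counts stand beside 3.51% and 5.67% over all genes, and the list median was 0.04. The lower genes were Tagln, Cnn1, Tgfb3 and Ctgf, a pair of contractile proteins, a TGF-beta ligand and a TGF-beta and YAP target. The higher gene was S100a4, a calcium-binding protein gene, at 256 and 520 CPM. Vim, the intermediate filament gene vimentin, stood at 759 and 419 CPM and Col3a1 at 680 and 379 CPM. Fn1, the fibronectin gene, was at 1941 and 2023 CPM (log2 0.06, -0.03 to 0.15).

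Junction genes were nearly level, with 0 of 17 measured genes 2-fold apart in either direction (median -0.06), beside 3.51% and 5.67% over all genes. Basement membrane genes had 2 of 17 higher (Col15a1 and Agrn) and 4 lower (Col4a6, Npnt, Col4a5 and Lama5), with a median of -0.29. Glycocalyx genes had 2 of 11 higher, Msln and the hyaluronan receptor gene Cd44 (75.9 and 212 CPM), and 1 lower (Podxl). The keratin list had 0 of 3 measured genes 2-fold apart, and both measured uroplakins were rule genes.

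Genes of clotting and fibrinolysis changed sides within the list, with 4 of 14 higher and 2 lower. Over all genes the shares were 3.51% and 5.67%, and the list median was 0.13. Serpinb2, the gene of plasminogen activator inhibitor type 2, stood at 7.23 and 87.4 CPM (log2 3.60), and Procr and Thbd, receptors of the anticoagulant protein C pathway, at 13.4 and 55.0 CPM and at 21.7 and 63.1 CPM. F3, the tissue factor gene that starts clotting, stood at 123 and 43.7 CPM (-1.50), and Thbs1, the thrombospondin gene, at 1328 and 618 CPM (-1.10). Serpinb2 and F3 had mesenchymal ratios of 5.07 and -1.78, in the same directions.

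Among 26 growth factor and modulator genes 5 were higher and 3 lower (median 0.25), beside 3.51% and 5.67% over all genes. Higher genes were Igfbp5, Ereg, Sfrp2, Fgf7 and Igfbp7, and lower genes Rspo1, Bmp4 and Pdgfa. Igfbp7, a secreted binding protein gene, was the most abundant, at 774 and 1824 CPM (log2 1.24). Fgf2, a fibroblast growth factor gene, stood at 126 and 64.7 CPM in members (-0.96), with a mesenchymal ratio of 0.91. Retinoid genes had 1 of 8 higher (Rdh10, 21.5 and 89.0 CPM) and 0 lower. The log2 ratio of Rdh10 was -0.23 without members holding UMIs of other cell types' markers.

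Cell cycle and arrest genes were lower in part. Of 29 measured proliferation genes 0 were higher and 9 lower, beside 3.51% and 5.67% over all genes. Their median was -0.79, against 0.03 in mesenchymal barcodes. Cenpf, a kinetochore gene, stood at 79.5 and 29.1 CPM (log2 -1.45). The share of members with Mki67 or Top2a was 37.6% (32.7 to 42.6) in the young and 32.3% (20.9 to 45.3) in the old library, and 35.9% and 34.2% of mesenchymal barcodes held either. These shares were not thinned, and old members were shallower than young members (medians of 8566 and 10563 UMIs). Without these members the median of the list was -0.44.

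Cdkn2a, the locus of the cell cycle inhibitor p16, stood at 148 CPM in young and 43.7 CPM in old members (log2 -1.76, -2.38 to -1.21), in 62.4% and 25.8% of them. In mesenchymal barcodes it stood at 16.6 and 27.4 CPM (0.72). After thinning, 13.7% of young members held it against 1.37% of young Schwann barcodes. In the old library 4.84% of members held it against 8.05% of Schwann barcodes, so the share in members was not above that in Schwann barcodes. Whether old Schwann barcodes make Cdkn2a themselves was not tested. Its neighbour Cdkn2b was at 55.1 and 21.0 CPM (-1.39). Of 19 arrest and senescence genes 0 were higher and 4 lower (Cdkn2a, Cdkn2b, Sesn2 and Lmnb1), beside 3.51% and 5.67% over all genes. Their median was -0.13, against 0.54 in mesenchymal barcodes.

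Metabolic and positional lists were closer to level, read beside 3.51% higher and 5.67% lower over all genes. Lipid genes had 2 of 14 higher (Cebpd and Pnpla2, the latter at -1.02 with members chosen after thinning) and 2 lower, the lipoprotein lipase gene Lpl (219 and 72.8 CPM) and the lipid droplet gene Plin2 (66.1 and 22.7 CPM). Nuclear oxidative phosphorylation genes had 0 of 23 and cytosolic ribosomal protein genes 0 of 26 at least 2-fold apart, both with a median of -0.18. Of the Hox genes, regulators of regional identity, 2 of 8 were higher (Hoxc4 and Hoxb4, the latter at -0.80 with members chosen after thinning). Of 15 coelomic transcription factors 2 were lower, Bnc2 and Tcf21, with 3 old UMIs each. Tcf21 was at 0.46 without members holding UMIs of other cell types' markers.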

How the data were processed

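The authors deposited raw UMI counts per gene and barcode, made with Cell Ranger 3.0.1 per the file headers. The genome build was mm10, per the submitters' processing notes. Libraries were made with 10x 3′ version 2 chemistry, per the labels' protocols, and held 13104 young and 14636 old barcodes with 130398999 and 147166475 UMIs. Of 31053 gene identifiers 30934 were found in GENCODE vM21.

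UMIs were summed over members and set against the class total (CPM), with log2(old/young), exact Poisson and exact conditional Poisson 95% intervals for levels and ratios, and Clopper-Pearson intervals for shares. A library at 0 UMIs was set to 3. Reference classes were endothelial (Cdh5 and Pecam1), Schwann (Sox10 and a second gene that is not reported here) and mesenchymal barcodes (Pdgfra or Pdgfrb, with 0 UMIs of Upk3b, Upk1b, Lrrn4, Sox10 and Cdh5), and shares were thinned to 1000 UMIs. Doublets were not removed from the members. Scrublet (scanpy 1.11.5) scored them, and its automatic threshold, which marked 2 young and 4 old barcodes, did not work, so an alternative removed the highest scores at 0.8% per 1000 barcodes. Numpy 2.4.6, scipy 1.17.1, pandas 2.3.3, matplotlib 3.10.9 and edgeR 4.0.16 (scaling factors only) were used. The ratio code was tested on simulated data.

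The 32 gene lists, the members and the rule for named genes were chosen with earlier results of these data known. Named genes were the 20 highest identity ratios (at least 50 member UMIs in each library), the 15 largest and 15 smallest age ratios (at least 100 UMIs), up to 6 per list by ratio and 4 by level, and 12 always named. Genes of mitochondria, ribosomes, haemoglobins, immunoglobulins and the sex chromosomes were left out of the age ranking. Other genes were judged in the library where their level in members was higher. They were left out if under 20% of the level in all other barcodes there. They were also left out if under 5% of the level in endothelial, Schwann, leukocyte or adipocyte barcodes there. Mesenchymal barcodes were not used for this limit. Genes named beside a count of 5 or fewer, reference markers, the genes quoted for their class against other barcodes, and the 7 genes with opposite ratios were chosen after their values were seen. Symbols shared by more than 1 identifier (35) were left out of lists.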

Additional observations from a re-analysis of the deposited data

Results flagged for a closer look

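Of 7525 genes compared in both kinds of barcode, 7 were at least 2-fold apart in opposite directions in mesothelial members and in mesenchymal barcodes, 1 higher and 6 lower in old members. These genes were found by their values, and the difference between the classes was not tested. Eln, the elastin gene, was the higher one, with a log2(old/young) of 1.53 in members (48.7 and 140.8 CPM) and -1.66 in mesenchymal barcodes (48.1 and 15.2 CPM), and it was found in 26.2% of young and 37.1% of old members. Isg15, an interferon-induced gene, stood at -1.54 in members and 1.05 in mesenchymal barcodes.

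The chemokine gene Ccl20 stood at -2.21 against 3.01, with 77.3% of its young UMIs in 1 member. Prkg2, a cyclic GMP-dependent kinase gene, stood at -2.21 against 1.16 (141 and 4 UMIs in members). Utp4 stood at -1.32 against 1.18 (95 and 5 UMIs), the nuclear receptor gene Nr4a3 at -1.27 against 2.71 (55 and 3 UMIs) and the homeobox gene Hlx at -1.10 against 1.54 (49 and 3 UMIs). The counting intervals of Nr4a3 and Hlx in members included no difference.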

How the results depend on the processing

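The share of members depended on the rule and kept its order. It was 3.65% of young and 0.671% of old barcodes with at least 2 markers, 1.86% and 0.255% with at least 4, 1.05% and 0.120% with the rule applied after thinning to 3000 UMIs, and 0.808% and 0.0948% without members that held UMIs of other cell types' markers. The ratio of the shares stayed between 5.43 and 8.73. The 158 identity genes became 68 after thinning, 42 without those members and 74 at a limit of 4-fold. The 265 genes higher and 428 lower in old members became 598 and 767 with at least 20 UMIs, 74 and 110 with at least 200, 867 and 1153 at 1.5-fold, and 76 and 121 at 3-fold. Genes higher numbered 146 after thinning and 172 without those members. Lists with a median at least 0.5 below 0 went from 3 to 5 in each of these settings.

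Of 233 genes and 25 list medians followed, a reversal was counted only where the main value was clear of 0. For genes this meant at least 2-fold apart, and for list medians at least 0.5 from 0. Among these, a direction reversed for 9 genes and 1 list median in at least 1 setting. Changes of sign nearer 0 were not counted. After thinning the log2(old/young) was 0.45 for Pcolce2, -0.031 for Serping1, -0.80 for Hoxb4 and -1.02 for Pnpla2. Without members holding UMIs of other cell types' markers it was 0.37 for the interferon list, -0.13 for Psmb8, -0.23 for Rdh10 and 0.46 for both Tcf21 and Nr4a3. Without members that held Mki67 or Top2a it was -0.49 for Igfbp5. These settings left 128 young and 16 old, 103 and 13, and 241 and 42 members. They gave no value for 8, 24 and 1 genes. The cause of each reversal was not tested. Other scalings reversed no gene that was at least 2-fold apart. No paired analysis was possible because each age has 1 library, and leaving out a replicate was impossible for the same reason. The 617837 UMIs of old members limit genes with few UMIs.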
